A study of Mus musculus with 3 samples.

Results

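The H3K4me3-ChIP peak list used here, from mouse cortices at E13.5, held 18816 peaks. Of them, 1861 (9.89%, Wilson 95% confidence interval 9.47 to 10.3%) had their summit more than 5 kb from every annotated transcription start site (TSS). These distant peaks are the subject of the description. The members were selected on 1 value, the distance of the summit, which is the position of highest signal, from every transcript start of the GENCODE M21 annotation. The other 16955 peaks had their summit at or within 5 kb of a TSS. The study holds 3 ChIP-seq libraries of embryonic brain cortex at E13.5, namely an input, an NF-Y-ChIP made with an NF-YC antibody and an H3K4me3-ChIP. The labels give tissue, stage and antibody, and no strain or genotype. The authors deposited a MACS2 peak list for each antibody on GRCm38 (mm10), and the fold enrichment of a peak is the signal at its summit over the local background. As each antibody has 1 library, replicate error could not be estimated, no p-value was computed, and the read depth behind the lists is unknown. Intervals cover the sampling of peaks, genes or windows only.

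Trimethylation of lysine 4 on histone H3 (H3K4me3) is placed by the SET1 and MLL methyltransferases and is the usual mark of nucleosomes just downstream of active or poised promoters. It is strongest on CpG islands, where CpG-binding proteins recruit these enzymes to unmethylated DNA. Away from known promoters, weak H3K4me3 can be found at active enhancers, at start sites missing from an annotation and next to genes transcribed by RNA polymerase III, such as tRNA genes. NF-Y is a trimer of NF-YA, NF-YB and NF-YC that binds the CCAAT box, mostly close to promoters.

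The sequence under the distant summits is shown first for the strongest distant peak assigned to a cortical progenitor factor (Hey1, a repressor downstream of Notch) and to a factor of the ventral telencephalon (Sp8, a zinc finger protein). Each is set beside the window 5 kb further along the chromosome, and the strongest peak in a forebrain enhancer tested in transgenic mice, near Hmga2, follows. Windows are 101 bp of the GRCm38 plus strand, and capitals mark CG dinucleotides.
Hey1 summit, chr3:8767569-8767669: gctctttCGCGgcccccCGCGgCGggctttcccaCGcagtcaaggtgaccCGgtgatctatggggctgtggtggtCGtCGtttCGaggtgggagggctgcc
Hey1 5 kb away, chr3:8772569-8772669: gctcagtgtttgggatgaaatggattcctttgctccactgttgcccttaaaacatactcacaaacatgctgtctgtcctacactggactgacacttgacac
Sp8 summit, chr12:118836682-118836782: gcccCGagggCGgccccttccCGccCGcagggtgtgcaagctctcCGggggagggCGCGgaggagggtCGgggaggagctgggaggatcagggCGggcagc
Sp8 5 kb away, chr12:118841682-118841782: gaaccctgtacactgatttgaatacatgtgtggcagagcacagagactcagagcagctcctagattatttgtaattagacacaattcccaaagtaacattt
Hmga2 summit, chr10:120552591-120552691: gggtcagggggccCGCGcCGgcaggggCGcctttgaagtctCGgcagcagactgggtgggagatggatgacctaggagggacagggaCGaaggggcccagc
The windows at the summits near Hey1, Sp8 and Hmga2 hold 10, 9 and 6 CG dinucleotides, and both windows 5 kb away hold 0.

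The next sequences are tRNA genes in the 4 strongest distant peaks that hold one, given on the strand of the tRNA gene. Capitals mark GGTTCNA, part of the B box that the polymerase III factor TFIIIC binds inside the gene. The tRNA-Thr gene, in the same peak as the last tRNA-Leu and tRNA-Pro genes, does not hold these letters.
tRNA-Gly, chr1:171037997-171038068, minus strand: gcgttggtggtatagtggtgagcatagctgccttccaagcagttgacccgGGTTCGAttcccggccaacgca
tRNA-Asp, chr1:171102371-171102442, plus strand: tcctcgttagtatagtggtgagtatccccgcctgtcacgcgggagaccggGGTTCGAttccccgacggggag
tRNA-Leu, chr19:12011086-12011168, minus strand: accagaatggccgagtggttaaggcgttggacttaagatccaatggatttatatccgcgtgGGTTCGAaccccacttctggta
tRNA-Leu, chr14:51063883-51063964, plus strand: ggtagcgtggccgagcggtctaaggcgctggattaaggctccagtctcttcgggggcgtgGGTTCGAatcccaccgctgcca
tRNA-Pro, chr14:51064814-51064885, minus strand: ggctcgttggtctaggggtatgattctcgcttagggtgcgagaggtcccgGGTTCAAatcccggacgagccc
tRNA-Thr, chr14:51065168-51065240, minus strand: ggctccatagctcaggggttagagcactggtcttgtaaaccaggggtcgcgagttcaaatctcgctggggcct

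The last set shows 31 bp of the GRCm38 plus strand around the CCAAT box nearest to the NF-Y-ChIP summit in distant peaks that overlapped an NF-Y-ChIP peak. CCAAT, or ATTGG where the box is on the minus strand, is in capitals.
Bahcc1, chr11:120305272-120305302: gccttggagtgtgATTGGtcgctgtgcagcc
Bahcc1, chr11:120310944-120310974: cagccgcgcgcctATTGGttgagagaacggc
Bahcc1, chr11:120316234-120316264: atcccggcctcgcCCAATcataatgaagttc
Nsd1, chr13:55190355-55190385: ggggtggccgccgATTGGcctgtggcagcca
Sox12, chr2:152406251-152406281: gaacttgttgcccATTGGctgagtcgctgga
Scd1, chr19:44388607-44388637: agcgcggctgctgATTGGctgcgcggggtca

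The distant peaks were low and narrow. Their median fold enrichment was 7.48 (interquartile range 5.35 to 13.8, highest 78.3), against 30.7 (12.5 to 47.5) for the other peaks. Their median width was 440 bp (277 to 704 bp, widest 3458 bp), against 1182 bp (702 to 1675 bp). Of the 1861 distant peaks, 91 (4.89%) were above the median fold enrichment of the other peaks and 106 (5.70%) above their median width. Together the distant peaks covered 1009137 bp of the 22668286 bp covered by all peaks.

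Fold enrichment hardly changed with distance beyond the first kilobase. The median was 33.9 for the 15162 summits at or under 1 kb and 6.62 for the 1793 summits at 1 to 5 kb. It was 7.65 for the 624 distant peaks at 5 to 10 kb, 7.41 for the 1063 at 10 to 50 kb and 7.20 for the 174 beyond 50 kb. The step therefore lay between the peaks within 1 kb and those at 1 to 5 kb, and the limit of 5 kb did not mark one. Median width was 480 bp at 5 to 10 kb, 414 bp at 10 to 50 kb and 375 bp beyond 50 kb. The median distance from the summit to the nearest TSS was 14282 bp (interquartile range 8368 to 26940 bp). Just inside the rule were peaks at 5019 bp from Gm44758 (4.09-fold), 5021 bp from 4930590L20Rik (4.36-fold) and 5029 bp from Gm30232 (18.9-fold). Just outside it were peaks at 4997 bp from AC123853.2 (24.4-fold), 4991 bp from Fcrlb (14.9-fold) and 4984 bp from Sgms1 (5.13-fold). The peak at AC123853.2, which also overlapped an NF-Y-ChIP peak, was higher than the peaks just inside.

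**Figure D1:**
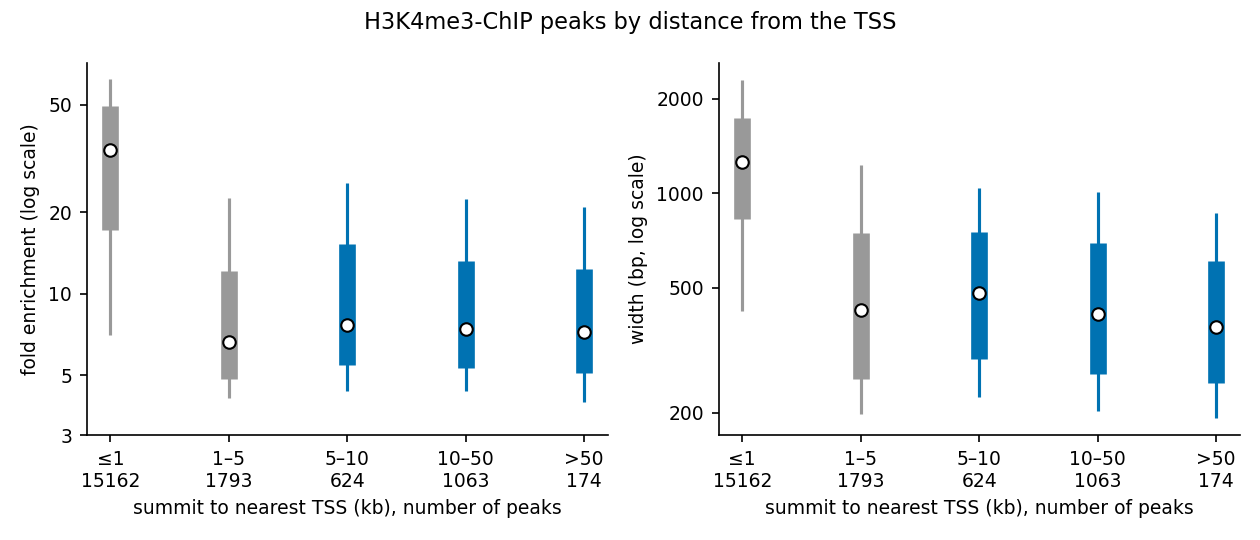
Fold enrichment (left) and width in bp (right), both on log axes, of H3K4me3-ChIP peaks by distance of the summit from the nearest TSS; circles are medians, thick bars interquartile ranges and thin bars the central 80% of peaks. The peaks within 1 kb of a TSS stand above all other classes, and the peaks at 1 to 5 kb (grey) and the 3 classes of distant peaks (blue) have medians of 6.62 to 7.65.

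The 10 strongest distant peaks reached the level of promoters. The highest, chr12:8640512-8641621, had 78.3-fold enrichment over 1110 bp and lay 33.2 kb upstream of Pum2, which encodes an RNA-binding repressor of translation. No RefSeq TSS or tRNA gene was at this peak, and 43.7% of its bases were soft-masked as repeats. Next came a 62.9-fold peak 83.2 kb upstream of the GENCODE start of Arhgap32, a GTPase-activating protein of neurons, at chr9:32031706-32033535. A 58.3-fold peak, chr9:67632461-67634628, lay 74.5 kb upstream of Tln2, which encodes the adhesion protein talin 2. A 56.2-fold peak lay 6.55 kb upstream of Elovl5, a fatty acid elongase, at chr9:77910222-77911314. The fifth, in an intron of the noncoding gene Gm12446, had 53.5-fold enrichment and Foxe1 as its nearest GENCODE protein-coding gene, 38.5 kb away. Its summit was 938 bp from a predicted RefSeq start of Gm12447. Peaks with a tRNA gene followed at 53.5-fold (chr1:171037633-171038688, 19.4 kb from Fcgr4) and 50.9-fold (chr1:171101902-171103022, 11.3 kb upstream of Cfap126). A 51.8-fold peak lay 11.4 kb from the lincRNA 1700092C17Rik, with Apbb1ip as the nearest protein-coding gene, and a 50.7-fold peak 5.88 kb upstream of Trp53rkb. The tenth was a 49.97-fold peak 5.99 kb upstream of the zinc finger gene Zfp869. It alone of the 10 overlapped an NF-Y-ChIP peak.

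The widest distant peaks were also strong. The widest, chr14:51062821-51066278, measured 3458 bp with 46.8-fold enrichment, lay 5.99 kb downstream of the start of Olfr750, an olfactory receptor gene, and held tRNA genes. The next, 3429 bp and 49.8-fold, was in an intron of the noncoding gene Lncppara, 63.4 kb upstream of Ppara, a nuclear receptor of fatty acid metabolism. The third (2579 bp, 23.7-fold, near Dhx37) and the fifth (2373 bp, 47.9-fold, near Olfr1423) also held tRNA genes. The fourth, 2492 bp wide and 36.9-fold, lay 5.87 kb upstream of the lincRNA C130071C03Rik, and its nearest protein-coding gene was Mef2c, a transcription factor of cortical neurons. The farthest peaks from any GENCODE TSS were weak to moderate, and RefSeq starts were nearer to some of them, at 44.0 kb from the first, 49.8 kb from that nearest to Rbbp8 and 52.5 kb from that inside Dpyd. A 3.98-fold peak lay 335.6 kb upstream of Sema6d, a semaphorin, and a 10.7-fold peak was 270.4 kb from a small nuclear RNA gene, with Fign as the nearest protein-coding gene. Others were a 13.4-fold peak nearest to Rbbp8 (272.9 kb from a pseudogene), a 4.26-fold peak inside Dpyd (251.1 kb from a TSS) and a 13.1-fold peak 196.5 kb upstream of Eya1, a transcriptional coactivator with phosphatase activity.

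Most distant peaks were intergenic. The summit lay outside every GENCODE gene in 1209 of 1861 (65.0%, interval 62.8 to 67.1%), in an intron in 478 (25.7%), in a coding exon in 126 (6.77%) and in another exon in 48 (2.58%). In all, 652 (35.0%, interval 32.9 to 37.2%) were inside a gene. As a base rate, positions every 10 kb along the chromosomes that are more than 5 kb from a TSS were taken (203439 positions). Of these positions, 40.3% were inside a gene and 2.07% in an exon, against 9.35% (interval 8.11 to 10.8%) of the distant peaks in an exon. The share of distant peaks in genes was thus below that of the positions, and the share in exons above it. The share in genes depended on the set of starts used, and was 45.6% with a limit of 2 kb, 46.0% with starts of protein-coding transcripts alone and 63.3% with gene 5′ ends alone, when most distant peaks were inside a gene. The positions were not recomputed for these settings. The coding-exon peaks were also the most CpG-rich, with CpG-island-like sequence at 95 of 126 (75.4%, interval 67.2 to 82.1%). At introns the count was 142 of 478 (29.7%), and at intergenic summits 394 of 1209 (32.6%). The strongest peaks in coding exons were in Pura (44.5-fold, 903 bp from a RefSeq start), a DNA- and RNA-binding protein of neurons, Nrg2 (40.9-fold), a neuregulin, Fgf23 (39.2-fold), a phosphate hormone, Klhl31 (35.6-fold) and Rims1 (32.2-fold), a scaffold of the presynaptic active zone. These were named after their values were seen.

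Some distant peaks had a start site in another annotation. The RefSeq annotation of GRCm38.p6, which includes predicted transcripts, had a TSS within 1 kb of the summit of 230 distant peaks (12.4%, interval 10.9 to 13.9%). Over all H3K4me3-ChIP peaks the share was 78.4%, and over the positions every 10 kb it was 0.947%. For the peaks at 1 to 5 kb from a GENCODE TSS it was 14.9% (interval 13.3 to 16.6%). Of the 230, 194 (84.3%) had a predicted transcript model nearest and 23 and 13 a curated noncoding or protein-coding transcript. Their median fold enrichment was 9.44 (interquartile range 6.14 to 20.3), against 7.35 (5.30 to 13.1) for the distant peaks without one. The peaks upstream of Arhgap32 and Tln2 were 326 and 177 bp from the start of a predicted alternative transcript of the same gene. The peak upstream of Zfp869 was 122 bp from a predicted start of that gene, and a 48.0-fold peak assigned to Dtna, a component of the dystrophin complex, 557 bp from one of Dtna. With RefSeq starts added to the rule, an alternative chosen after the data were seen, 1439 peaks were still distant and their median fold enrichment was 7.35.

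Peaks that hold a tRNA gene were the strongest class among the distant peaks. Of the 1861, 44 (2.36%, interval 1.77 to 3.16%) overlapped at least 1 of the 403 tRNA genes of the RefSeq annotation, against 0.574% of all peaks and 64 of 16955 other peaks (0.377%, interval 0.296 to 0.482%). The peaks at 1 to 5 kb from a TSS, with 26 of 1793 (1.45%, interval 0.991 to 2.12%), were closer, and their interval overlapped that of the distant peaks. The 44 distant peaks with a tRNA gene had a median fold enrichment of 25.6 (interquartile range 13.9 to 35.6) and a median width of 1126 bp. With the distant peaks divided into 4 equal bins by fold enrichment, 33 of the 44 were in the highest bin, and 17 of the 100 strongest distant peaks held a tRNA gene. One tRNA gene was in 34 of these peaks and 2 or 3 were in the other 10. The summit fell inside the tRNA gene in 0 of 44 peaks and lay a median of 234 bp from it (interquartile range 190 to 342 bp). The summits flanked the transcribed part, and MACS2 gives 1 summit for each peak. Many tRNA genes are near-identical copies, and whether reads could be placed inside them was not tested. Only 1 of the 44 was inside a GENCODE gene.

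The marking of tRNA genes was uneven. Of the 214 tRNA genes more than 5 kb from a GENCODE TSS, 57 (26.6%, interval 21.2 to 32.9%) were in a distant peak. Among the 5 largest groups, each within 1 Mb, the group at chr13:21160785-21996652 near the histone genes and Trim27 had 17 of 43 in a distant peak. The group at chr1:171033942-171669511 had 7 of 10, that at chr3:96322074-96501518 had 3 of 10 and that at chr13:23285401-23506590 had 2 of 20. The group at chr6:48133937-48363603, which consists of 42 tRNA-Cys genes, had 0 of 42, which allows a share of up to 8.38% by the interval. By product, 11 of 17 distant tRNA-Leu genes, 6 of 11 tRNA-Gly, 5 of 10 tRNA-Met and 4 of 7 tRNA-His genes were in a distant peak, against 0 of 44 tRNA-Cys, 0 of 7 tRNA-Gln and 0 of 3 tRNA-Trp genes. Without tRNA-Cys the share was 57 of 170 (33.5%). The B-box letters GGTTCNA were in 50 of the 58 tRNA genes in distant peaks (86.2%, interval 75.1 to 92.8%) and in 136 of the 156 distant tRNA genes without a peak (87.2%, interval 81.0 to 91.5%). Over all tRNA genes it was 346 of 403 (85.9%). This part of the box was thus as frequent in marked as in unmarked genes, and it is found in most tRNA genes. Many tRNA genes are near-identical copies, and how reads that align to several copies were treated is not given in the sources used here, so the assignment of signal to 1 copy is uncertain.

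**Figure D2:**
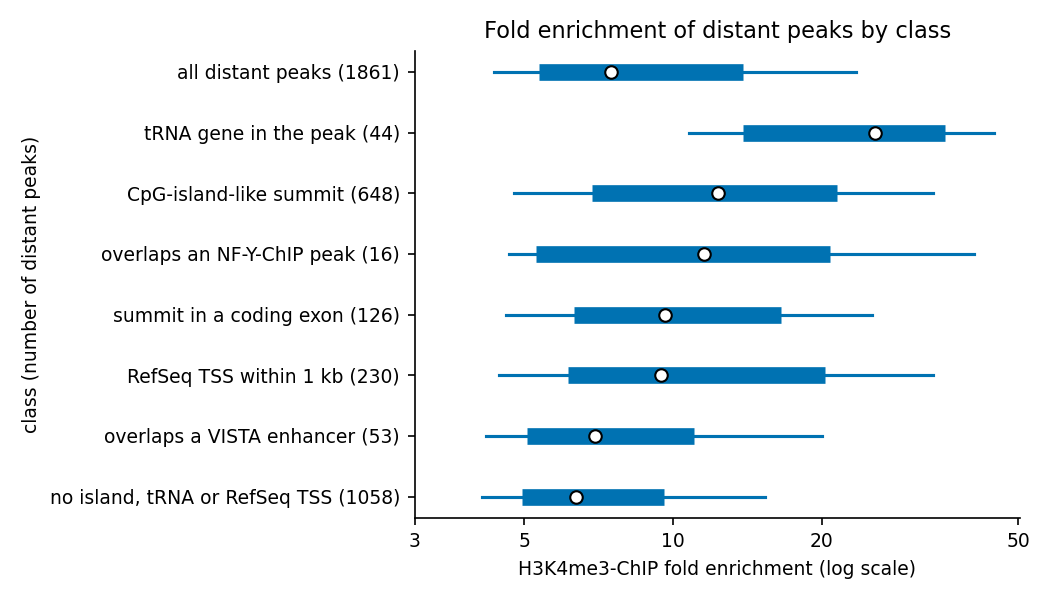
Fold enrichment (log axis) of the distant peaks by class; circles are medians, thick bars interquartile ranges and thin bars the central 80% of peaks, with the number of peaks in parentheses, and a peak can be in several classes. Peaks with a tRNA gene have the highest median (25.6) and the 1058 peaks with no CpG-island-like summit, tRNA gene or RefSeq TSS the lowest (6.35).

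A small share of distant peaks lay on enhancers with tested activity. The RefSeq annotation lists 620 mouse elements of the VISTA collection, in which a fragment drives a reporter in transgenic embryos, with the tissues of activity. Of the distant peaks, 53 (2.85%, interval 2.18 to 3.71%) overlapped such an enhancer, against 0.415% of all peaks. From the enhancers' side, 499 of the 620 were themselves more than 5 kb from a TSS, and 47 of the 499 (9.42%, interval 7.16 to 12.3%) overlapped a distant peak. The share was 32 of 234 (13.7%, interval 9.86 to 18.7%) for enhancers active in forebrain, midbrain, hindbrain or neural tube and 15 of 265 (5.66%, interval 3.46 to 9.13%) for those active in none of these. The former were longer, with a median of 2711 bp against 2125 bp, and the part of length in the difference was not tested. The order did not put forebrain first. Among the tissues counted, the highest share, 8 of 25 (32.0%), was for dorsal root ganglion, which has the fewest enhancers of these. Other tissues in the collection, such as eye, nose and tail, were not counted. The share was 23 of 115 for hindbrain, 20 of 132 (15.2%) for midbrain and 15 of 132 (11.4%, interval 7.01 to 17.9%) for forebrain. It was 10 of 145 (6.90%) for limb and 5 of 126 (3.97%) for heart. The intervals of the brain regions overlapped each other, so these data do not separate them, and many enhancers are active in several tissues.

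The peaks on enhancers were weak, with a median fold enrichment of 6.95 (interquartile range 5.07 to 11.0). The strongest on a forebrain enhancer was the 30.1-fold peak near Hmga2, a chromatin protein of early neural stem cells, 52.9 kb from the nearest TSS, whose CpG-rich sequence is shown above. It was followed by peaks of 11.0-fold near Cbfa2t2, a corepressor, 8.48-fold in an element near Sdk2, an adhesion protein, and 8.02-fold near Ndfip2. Peaks near Gas1, a hedgehog coreceptor, and Btg2, an antiproliferative gene of neurogenic progenitors, were 6.95-fold and 6.93-fold. The peak near Btg2 was also 371 bp from a curated RefSeq start of the noncoding gene Gm19497. Outside the forebrain set, peaks on enhancers active in hindbrain, midbrain and neural tube included one near Msx3 (19.4-fold), a homeobox gene of the dorsal neural tube. The signal-induced genes Fos and Fosb had peaks of 16.5-fold and 23.5-fold on enhancers with activity in heart. These peaks were named after their values were seen.

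**Figure D3:**
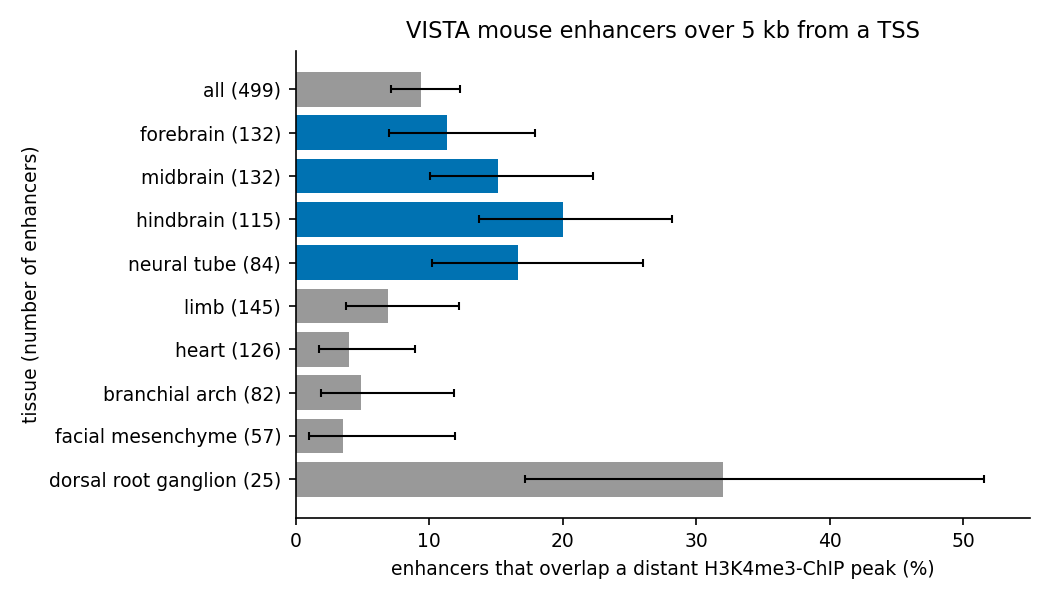
Share of VISTA mouse enhancers more than 5 kb from a TSS that overlap a distant H3K4me3-ChIP peak, by tissue of reported activity, with Wilson 95% confidence intervals and the number of enhancers in parentheses. Hindbrain (23 of 115), neural tube (16.7%), midbrain (15.2%) and forebrain (11.4%) are shown in blue, limb (6.90%) and heart (3.97%) are lower, and dorsal root ganglion (32.0%) has the widest interval.

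The distant summits were rich in CpG, though less so than summits within 1 kb of a TSS. In the 500 bp around the summit, 648 of 1861 distant peaks (34.8%, interval 32.7 to 37.0%) were CpG-island-like, that is, had at least 50% GC and an observed to expected CpG ratio of at least 0.6. Of all peaks 69.9% were, and of the other peaks 73.7%. The peaks at 1 to 5 kb from a TSS, 625 of 1793 (34.9%, interval 32.7 to 37.1%), had a share close to that of the distant peaks. Windows 5 kb to each side of the distant summits that were free of any H3K4me3-ChIP peak were island-like in 15 of 3602 cases (0.416%, interval 0.253 to 0.686%), and windows every 10 kb in 0.241%. Median GC was 55.4% at distant summits, 64.4% at other summits, 45.6% in the windows 5 kb away and 40.8% every 10 kb. The median CpG ratio was 0.557, 0.755, 0.191 and 0.148 in the same order. Even the 1213 distant peaks that were not island-like had a median CpG ratio of 0.480, above the 75th percentile of the windows 5 kb away (0.274).

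CpG content went with fold enrichment. From the lowest to the highest of the 4 bins of fold enrichment, 19.1%, 21.7%, 36.3% and 62.2% were island-like, the last with an interval of 57.7 to 66.4%. The share near RefSeq starts was 9.13%, 10.9%, 11.0% and 18.5%. Enhancer overlap did not follow this order, with 3.61%, 3.04%, 2.37% and 2.37%. Beyond 50 kb from a TSS the island-like share was 20.7% (interval 15.3 to 27.3%), against 41.2% (interval 37.4 to 45.1%) at 5 to 10 kb. Few peaks lay mostly in repeats. Over the whole peak, more than 50% of the bases were soft-masked in 9 distant peaks (0.484%, interval 0.255 to 0.917%), against 0.33% of all peaks. Of the windows every 10 kb, measured over a fixed 500 bp instead, 29.4% were above 50%. Whether reads from repeats could be placed, and so give a peak, was not tested.

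Short motifs were counted on both strands of the 500 bp windows. The GC box GGGCGG, the core of sites for SP and KLF factors, was in 52.3% of distant summits, 71.8% of other summits, 7.61% of windows 5 kb away and 3.62% every 10 kb. The E-box CAGCTG, a site of basic helix-loop-helix factors, was in 32.2% of distant summits (interval 30.1 to 34.3%), 26.4% of other summits, 20.4% of windows 5 kb away and 16.0% every 10 kb. The E-box CAGATG, preferred by the NEUROG and NEUROD factors, was in 25.8%, 18.9%, 34.6% and 33.9% in the same order. CAGCTG was thus more frequent, and CAGATG less frequent, at distant summits than in the windows around them. The TATA hexamer TATAAA, which is rich in A and T, was in 12.5%, 6.79%, 29.3% and 42.4%. The palindrome TGACGTCA of CREB and ATF factors was in 1.99%, 2.02%, 0.333% and 0.238%, so its share at distant summits was close to that at the others.

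A strict consensus of CTCF, the factor of chromatin loop anchors, was found more often at distant summits than at the others. It was in 55 of 1861 distant windows (2.96%, interval 2.28 to 3.83%), against 0.578% of other summits (interval 0.475 to 0.704%), 0.139% of windows 5 kb away and 0.122% every 10 kb. Of the motifs counted it was the one whose share at distant summits exceeded that at the other summits by the largest factor. A match to these letters is not a measured site, and GC content differs between the 4 sets of windows. The part of GC content in these shares was not tested.

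**Figure D4:**
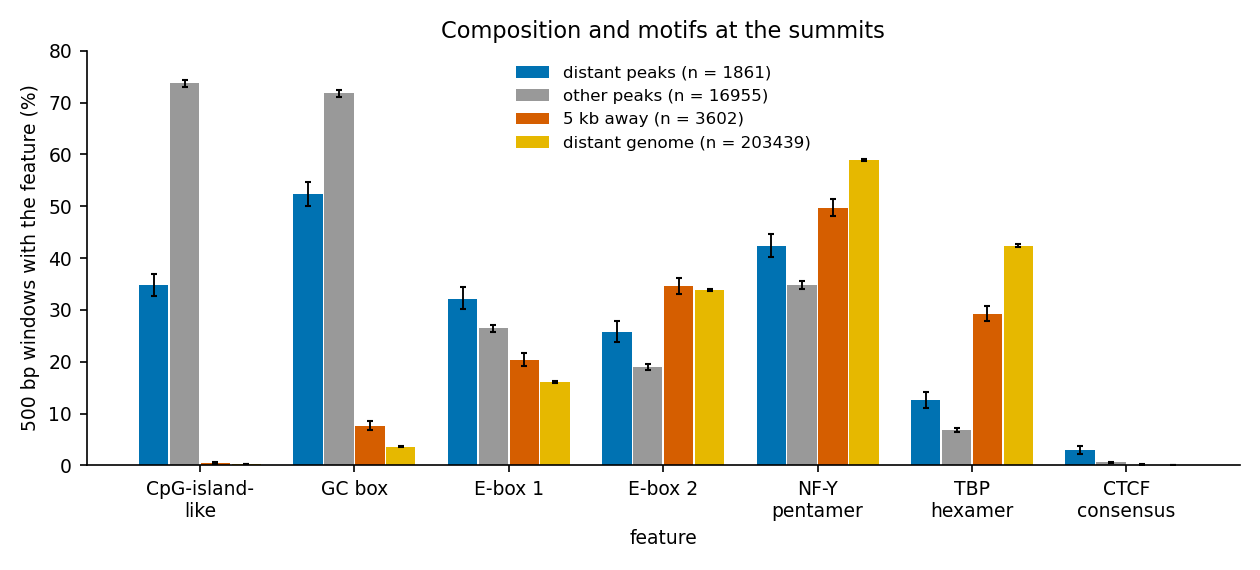
Share of 500 bp windows that are CpG-island-like or hold a motif on either strand, at distant H3K4me3-ChIP summits, at other H3K4me3-ChIP summits, 5 kb to each side of the distant summits and every 10 kb of the genome more than 5 kb from a TSS, with Wilson 95% confidence intervals. E-box 1 is CAGCTG, E-box 2 CAGATG, the NF-Y pentamer CCAAT and the TBP hexamer TATAAA; the GC box is in 52.3% of distant summits and 7.61% of the windows 5 kb away, and the CTCF consensus in 2.96% and 0.139%.

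The CCAAT box was more frequent at distant summits than at the other summits and less frequent than in the windows around them. CCAAT or ATTGG was within 50 bp of the summit in 176 of 1861 (9.46%, interval 8.21 to 10.9%), against 5.67% of all peaks and 5.25% of the other peaks (interval 4.92 to 5.60%). At 1 to 5 kb from a TSS it was 7.64% (interval 6.50 to 8.96%). Windows 5 kb away held it in 13.2% and windows every 10 kb in 16.7%. In the 500 bp windows it was in 42.4% of distant summits, 34.8% of other summits, 49.7% of windows 5 kb away and 58.9% every 10 kb. Distant summits thus stood between the other summits and the windows around them, which are poorer in GC.

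Few distant peaks met NF-Y. An NF-Y-ChIP peak overlapped 16 of 1861 distant peaks (0.860%, interval 0.530 to 1.39%), against 3.54% of all peaks and 651 of 16955 other peaks (3.84%, interval 3.56 to 4.14%). The peaks at 1 to 5 kb from a TSS had a similar share, 21 of 1793 (1.17%, interval 0.767 to 1.78%), so a low overlap with NF-Y was not particular to the distant peaks. Among the stronger 50% of all H3K4me3-ChIP peaks by fold enrichment, 4 of 132 distant peaks (3.03%, interval 1.18 to 7.53%) overlapped NF-Y, against 536 of 9277 other peaks (5.78%, interval 5.32 to 6.27%), and these intervals overlap. The share was 9 of 624 (1.44%) at 5 to 10 kb, 7 of 1063 (0.659%) at 10 to 50 kb and 0 of 174 beyond 50 kb, which allows up to 2.16% by the interval. The 16 distant peaks met 15 of the 733 NF-Y-ChIP peaks, because 1 NF-Y-ChIP peak at Zfp869 touched 2 of them. From the other side, 63 of the 733 NF-Y-ChIP summits were more than 5 kb from a TSS, and 15 of these 63 (23.8%, interval 14.99 to 35.6%) lay in peaks that overlapped a distant H3K4me3-ChIP peak. In all 15, CCAAT or ATTGG lay at most 50 bp from the NF-Y-ChIP summit (interval 79.6 to 100%). Of the 48 distant NF-Y-ChIP summits without a distant H3K4me3-ChIP peak, 25 did (52.1%, interval 38.3 to 65.5%). Over all NF-Y-ChIP peaks that overlapped no distant H3K4me3-ChIP peak, near a TSS or not, 631 of 718 did (87.9%), a share within the interval of the 15. The median NF-Y-ChIP fold enrichment was 7.41 for the 15 (lowest 3.48, highest 14.2) and 6.75 for the other 718.

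The 3 distant peaks with the highest NF-Y-ChIP signal had low H3K4me3-ChIP enrichment, and the 7 named after them ranged from 4.86- to 49.97-fold. The first, inside an intron of Zfp608 and 7.02 kb upstream of the nearest start, had 14.2-fold NF-Y-ChIP and 4.43-fold H3K4me3-ChIP enrichment over 201 bp. The next, 6.39 kb upstream of the cell polarity gene Pard6g, had 12.1-fold and 4.41-fold enrichment, and the third, 38.6 kb upstream of Rasa2, a Ras GTPase-activating protein, 11.4-fold and 7.03-fold. Then came a group of 3 peaks beyond the 3′ end of Bahcc1, a gene for a BAH domain protein, at 15.3, 21.4 and 26.3 kb from its nearest annotated start. Each overlapped its own NF-Y-ChIP peak, with 8.62-, 8.99- and 10.6-fold NF-Y-ChIP and 29.9-, 12.4- and 17.7-fold H3K4me3-ChIP enrichment, and each has a CCAAT box in a different surrounding, as printed above. The third of them, chr11:120315794-120316984, also overlapped a VISTA enhancer with activity in dorsal root ganglion. The others in the 10 named were in an intron of Vwf, the von Willebrand factor of endothelium (8.34-fold NF-Y-ChIP, 4.86-fold H3K4me3-ChIP), in an intron of Mrps27, a mitochondrial ribosomal protein (7.41-fold and 15.8-fold), 19.6 kb upstream of Nsd1, a histone methyltransferase (6.68-fold and 13.9-fold), and upstream of Zfp869 (6.48-fold and 49.97-fold). Of the remaining peaks, those assigned to Scd1, a fatty acid desaturase (41.6-fold), and Olfr288 (39.7-fold) had high H3K4me3-ChIP enrichment, and one lay 8.33 kb upstream of Sox12, a factor of neural progenitors (7.14-fold).

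Genes of developmental transcription factors were often the nearest protein-coding gene of a distant peak. In all, 1418 of 21992 protein-coding genes (6.45%) were nearest to at least 1 distant peak, 1115 of them to 1 peak, 217 to 2 and 86 to 3 or more. Of 25 transcription factors and related regulators of cortical progenitors, 17 were (68.0%, interval 48.4 to 82.8%), with 35 peaks. Of 26 factors of projection neurons, 17 were (65.4%, interval 46.2 to 80.6%), with 33 peaks, and of 24 factors of the ventral telencephalon 13 (54.2%, interval 35.1 to 72.1%), with 26 peaks. Against these stood 3 of 40 synaptic and neuron-specific genes and 3 of 40 cell cycle genes (7.50% each, interval 2.58 to 19.9%), close to the share over all genes. Signalling genes of the Notch, Wnt, Fgf and Bmp pathways had 8 of 34, chromatin regulators 8 of 34, axon guidance and adhesion genes 9 of 38 and imprinted genes 5 of 28.

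Such a count depends on how much of the genome is nearest to a gene. The median stretch more than 5 kb from a TSS and nearest to the gene was 150 kb for cortical progenitor factors, 515 kb for projection neuron factors and 145 kb for ventral factors, against 20 kb over all protein-coding genes. Per Mb of such stretch, cortical progenitor factors had 4.21 distant peaks (exact Poisson 95% interval 2.93 to 5.85), ventral factors 3.46 (2.26 to 5.07) and projection neuron factors 2.28 (1.57 to 3.20), against 0.915 (0.874 to 0.957) over all genes. Chromatin regulators had 3.30 (1.76 to 5.64). Axon guidance genes had 0.350 (0.186 to 0.598) and synaptic genes 0.282 (0.0769 to 0.722), both below all genes, in genes whose median length was 275 and 74.6 kb. Cell cycle genes had 1.92 (0.524 to 4.92), imprinted genes 1.87 (0.807 to 3.68) and signalling genes 1.90 (0.950 to 3.41), with wide intervals. The Poisson intervals treat peaks as independent and are too narrow where peaks of 1 gene lie close together. Emx2, for example, had 3 peaks at 6.39 to 7.32 kb from its start. The rates were not recomputed with neighbours merged. The 3 lists of transcription factors and the chromatin regulators thus stood above all genes by both measures, and the axon guidance genes above by count and below per Mb. Distant peaks inside the gene itself were fewer, for 462 of 21992 protein-coding genes, 2 of 25 cortical progenitor factors, 7 of 26 projection neuron factors and 3 of 24 ventral factors. The gene nearest to a peak need not be the gene it acts on.

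**Figure D5:**
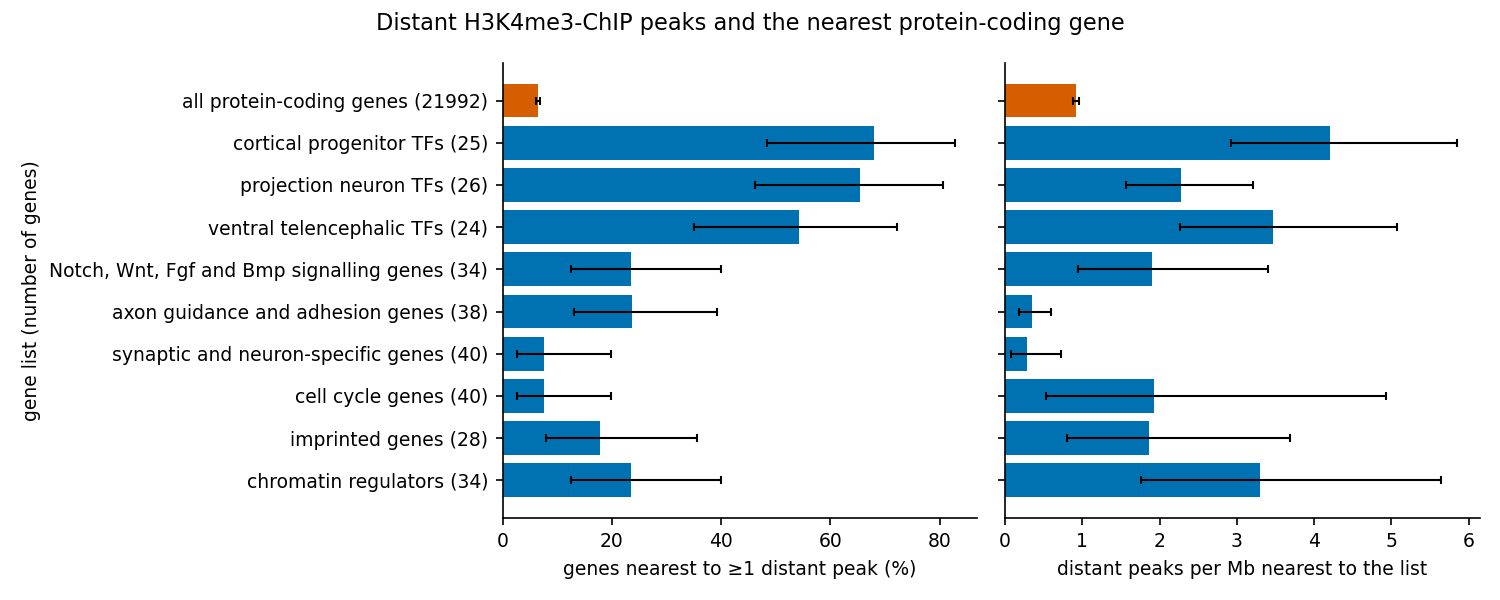
Left, share of the genes of each list that are the nearest protein-coding gene of at least 1 distant H3K4me3-ChIP peak, with Wilson 95% intervals; right, distant peaks per Mb of sequence more than 5 kb from a TSS and nearest to the genes of the list, with exact Poisson 95% intervals. The 3 lists of transcription factors lie above all protein-coding genes (6.45% and 0.915 per Mb) in both plots, and axon guidance and synaptic genes lie below all protein-coding genes per Mb.

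Among the cortical progenitor factors the strongest peaks were 100.4 kb upstream of Hey1 (30.4-fold, 1248 bp, 979 bp from a predicted RefSeq start of the uncharacterised gene Gm52599), 27.1 kb from the start of Nr2f1, a nuclear receptor that patterns the cortex, inside Fam172a (28.0-fold, 1172 bp), and 73.2 kb downstream of Dmrta2, a regulator of the cortical hem (20.9-fold, 709 bp). Emx2 and Otx1, homeobox genes of the early forebrain, had 3 peaks each within 6.39 to 7.32 kb and 5.56 to 8.04 kb of the start. Their strongest reached 6.60-fold and 4.60-fold. Sox2 had 2 peaks (strongest 5.84-fold, nearest 42.0 kb) and Eomes, a factor of intermediate progenitors, 2 (6.52-fold, 88.5 kb). Pax6, Lhx2, Hes1, Hes6, Neurog2, Gli3, Nr2e1 and Insm1 were not the nearest gene of any distant peak.

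Among the projection neuron factors, the strongest peaks were 5.12 kb upstream of Sox4 (29.6-fold, 2094 bp wide), 8.88 kb upstream of Pou3f3 in an intron of the noncoding gene Pantr1 (25.9-fold, 1983 bp) and 9.08 kb upstream of Neurod2 (22.7-fold, 1125 bp). Sox4 and Pou3f3 act in young and upper-layer neurons and Neurod2 in their differentiation. Tbr1, a factor of deep-layer neurons, had peaks at 5.82 and 9.60 kb (strongest 15.5-fold). Bcl11b, which marks subcerebral neurons, had 3 peaks (6.88-fold) and Fezf2, which specifies them, 1 peak at 5.20 kb (3.66-fold). Among the ventral factors the strongest were 9.60 kb upstream (26.7-fold) and 7.55 kb downstream of the start of Sp8 (17.6-fold), and 8.33 kb upstream of Meis1 (15.9-fold), a homeobox gene of the ganglionic eminences. Gsx2 had a 14.6-fold peak at 8.22 kb, Dlx2 2 peaks (strongest 14.5-fold) and Nkx2-1 2 peaks (6.29-fold), although the tissue was labelled as cortex.

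In the other lists the strongest peaks were as high as promoters for a few genes. Smad7, an inhibitor of TGF-beta and Bmp signalling, had a 43.4-fold peak 24.3 kb upstream, Wnt3a, the Wnt of the cortical hem, a 23.8-fold peak in its intron and Wnt7b a 20.4-fold peak 52.5 kb upstream, which was 376 bp from a RefSeq start of the uncharacterised gene D130051D11Rik. Robo3, Epha3 and Robo1, which guide axons, had peaks of 35.8-fold (27.2 kb upstream), 26.4-fold (in an intron) and 25.9-fold (279.3 kb upstream, and 1458 bp from a RefSeq start of Robo1). Ezh2, the methyltransferase of H3K27, was nearest to a 47.9-fold peak 56.1 kb away, Arid1b to a 40.4-fold peak 86.2 kb upstream and Chd7 to a 30.9-fold peak 43.0 kb upstream. Each of these 3 had a RefSeq TSS of another, uncharacterised gene within 1 kb, at 88, 214 and 70 bp. Cdkn1c, an imprinted inhibitor of the cell cycle, had a 22.4-fold peak 21.2 kb away, Asb4 a 7.39-fold peak in its intron and Snrpn a 5.90-fold peak 103.5 kb upstream. Of the cell cycle genes, Ccne1 (15.7-fold, 14.3 kb), Ccnd1 (7.12-fold, 90.9 kb) and Cdc20 (7.03-fold, 9.03 kb) were nearest to a distant peak. Of the synaptic genes, Cacna1a had a 14.2-fold peak in a coding exon and Rbfox1 peaks of 7.77-fold and 6.82-fold in an intron, at 409 and 635 bp from a RefSeq start of the same gene. Of the imprinted list, a 4.96-fold peak assigned to Trappc9 overlapped an NF-Y-ChIP peak (5.24-fold NF-Y-ChIP).

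Distant peaks were mostly single at a reach of 10 kb. Another H3K4me3-ChIP summit lay within 10 kb of 620 of the 1861 (33.3%, interval 31.2 to 35.5%), against 38.1% of all peaks. Within 50 kb, most distant peaks (72.7%) had another summit. Joined over gaps of up to 10 kb between summits, the distant peaks formed 1442 singles, 161 pairs and 28 groups of 3 or more, which held 97 peaks. The largest group, 8 peaks at chr13:21159049-21172889 near Trim27, had 4 peaks with tRNA genes (4.85- to 28.9-fold). Others without tRNA genes were 5 peaks at Psd2 (3.82- to 26.1-fold), and 4 each at Cbx8, a Polycomb protein (3.95- to 19.1-fold), Meis2 (3.68- to 7.72-fold), Sall1, a zinc finger gene (4.77- to 7.09-fold), and Klrb1c (5.13- to 18.6-fold). Counted by the nearest protein-coding gene, Bcor, an X-linked corepressor of the Polycomb system, and Trim27 had 11 distant peaks each. At Bcor these ranged from 3.59- to 22.5-fold. The nearest peak outside the distant set was a median of 33150 bp away, and within 10 kb for 291 distant peaks (15.6%).

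Promoters of cell type markers were checked in the H3K4me3-ChIP list. At 1 kb or less from a TSS, a summit was present for 7 of 8 markers of cortical cells (4.61- to 41.7-fold), for 3 of 5 of endothelium (7.35- to 30.2-fold), 2 of 5 of mesenchyme (4.76- and 10.0-fold), 0 of 5 of microglia and 0 of 5 of erythroid cells. Endothelial and mesenchymal genes were thus marked in the same tissue, and their part in the distant peaks was not tested. By chromosome, distant peaks made up 7.59% (chromosome 5) to 13.9% (chromosome 13) of the peaks on chromosomes 1 to 19 and X.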

How the data were processed

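ChIP-seq of E13.5 mouse cortices gave 3 libraries, 1 each of input, NF-Y-ChIP and H3K4me3-ChIP. After trimming with Trimmomatic, the authors aligned the reads to mm10 (GRCm38) with Bowtie 2 (version 2.2.8 in the submitters' processing notes). Peaks were called with MACS2 (2.1.2), with a threshold of 0.05 on q for the H3K4me3-ChIP list and of 0.001 on p for the NF-Y-ChIP list. The study names the input as the negative control of the ChIP, and whether MACS2 used it, like the treatment of reads that align to several places, is not given in the sources used here. The fold enrichment deposited for a peak is summit signal over local background, a ratio, the deposited −log10 values used are those of each peak's q-value, and the deposited score is a multiple of the −log10 value used for calling. The 2 lists were told apart by this score. The lists hold no read counts, so depth is unknown, and the input has no list of its own.

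Distant peaks were those with a summit more than 5 kb from the 5′ end of every GENCODE M21 transcript. The members, the gene lists (written by hand from general knowledge) and the motifs were chosen with earlier results of these data known. Sequence and soft-masking came from the GRCm38 reference, and RefSeq transcripts, tRNA genes and VISTA enhancers from NCBI annotation release 108.20200622. The RefSeq, tRNA, VISTA and per-Mb counts were chosen after the data were seen. Overlap counted from 1 bp. A peak was assigned to the protein-coding gene with the nearest TSS. Windows every 10 kb (203439) and 5 kb from each member (3602 free of peaks) served as background. Shares have Wilson and medians order-statistic 95% intervals. Peaks of 1 library are not replicates, so no test was run.

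Named were the 10 members with the highest fold enrichment, the 5 widest, the 5 farthest from a TSS, the 10 with the highest NF-Y-ChIP fold enrichment, up to 3 per gene list and 3 on each side of the limit. Others were named after their values were seen. Some listed genes are not reported here by name. The functions were tested on simulated data. Tables were handled with pandas 2.3.3 and NumPy 2.4.6, intervals computed with SciPy 1.17.1, sequence read with pysam 0.24.0 and figures drawn with matplotlib 3.10.9, all under Python 3.11.15.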

Additional observations from a re-analysis of the deposited data

How the results depend on the processing

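Of 131 recomputed values, 81 stayed within the 95% interval of the reported value (counts within 1.5 times) and 50 did not. A limit of 2000, 10000 or 50000 bp gave 2818, 1237 and 174 peaks, with 45.6%, 30.4% and 20.7% inside a gene and 47.1%, 22.6% and 14.4% with another peak near. At 10000 and 50000 bp median width was 412 and 375 bp and the CpG-island-like share 31.6% and 20.7%. At 50000 bp median fold enrichment was 7.20, CCAAT share 7.47% and NF-Y overlap 0%. With TSSs of protein-coding transcripts alone there were 2920 peaks (469 bp, 8.11-fold, 46.0% in genes, 39.0% island-like, 36.6% with a neighbour). With gene 5′ ends alone there were 3356 (563 bp, 9.21-fold, 63.3% in genes, 42.5% island-like, 36.9% with a neighbour, 1.46% with NF-Y, 7.42% with CCAAT). Among the stronger 50% of all H3K4me3-ChIP peaks, 132 were distant (1031 bp, 35.7-fold, 27.3% in genes, 78.8% island-like, 38.6% with a neighbour, 3.03% with NF-Y, 6.06% with CCAAT, 0% mostly masked). Merging neighbours gave 482 bp, 7.85-fold and 21.7% with a neighbour. Counting protein-coding genes alone, 29.0% were inside a gene. The stricter island rule (55% GC, ratio 0.65) gave 24.2%. CCAAT within 100 bp was in 18.2% and anywhere in the peak in 41.2%. Another summit was within 5 kb of 20.3% and within 50 kb of 72.7%. More than 80% of bases were masked in 0.107%. Of the 292 listed genes, 82 were nearest to a distant peak and 28 held one, against 1418 and 462 of all 21992 protein-coding genes. No paired analysis was possible because each antibody has 1 library. Leaving out the peaks with tRNA genes (1817 left) or adding RefSeq TSSs (1439 left of 18816), both chosen after the data were seen, kept median fold enrichment, median width and the shares in genes, with NF-Y, CpG islands, CCAAT, repeats or a neighbour within their intervals. The gene lists were not recomputed for either. Peaks below the calling threshold at the depth used are not listed, so an unmarked region is one without a called peak.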
